A study of Oryctolagus cuniculus with 24 samples.

Results

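PBMCs of 4 rabbits that had been stimulated for 24 h (T24) with PMA-Ionomycin were set directly against PBMCs of the same rabbits stimulated for 24 h with LPS. The arrays were chosen by their labelled stimulation and time, which gave 8 of the 24 arrays of the series, 4 of each stimulation, paired by the animal number in the sample title (rabbits 1, 2, 4 and 5). All animals were adult female New Zealand White rabbits, and every culture, mock-stimulated ones included, was of ficoll-separated blood cells in RPMI medium with fetal bovine serum. The LPS cultures received LPS at 1 µg/mL, and the PMA-Ionomycin cultures PMA at 10 ng/mL together with ionomycin at 1 µg/mL. Mock-stimulated cultures of T24 (4 arrays) and the cultures stimulated for 4 h (T4, 8 arrays) were used as comparisons. Each animal gave 1 culture per condition, and PBMCs are a mixture of lymphocytes, monocytes and few other cells, so that a level is that of the whole culture. RNA was labelled with Cy3 and measured on a one-colour Agilent rabbit array. Of the non-control spots, 56.7 to 61.0% were well above background on the PMA-Ionomycin arrays and 57.6 to 62.3% on the LPS arrays. Both arrays of rabbits 1, 2 and 4 lay on 1 slide each, whereas the LPS array of rabbit 5 lay on slide 2 and its PMA-Ionomycin array on slide 3.

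LPS, a component of the outer membrane of Gram-negative bacteria, is recognised on monocytes and macrophages by CD14, LY96 and TLR4, whose signal passes through MYD88 to NF-kappaB and the genes of inflammatory cytokines. PMA takes the place of diacylglycerol and activates protein kinase C directly, and ionomycin lets calcium into the cell, which activates calcineurin and the NFAT factors. Together they bypass the T cell receptor, and the mixture is used to make lymphocytes produce cytokines and divide.

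The array measures each transcript with probes of 60 bases. The probes of 6 of the 20 genes with the largest differences among those with a symbol are given here 5′ to 3′ as the array files list them. They belong to 3 cytokines of lymphocytes higher after PMA-Ionomycin and 3 myeloid genes higher after LPS. IL2 has 4 probes, all shown because they cover different parts of the gene on the minus strand of chromosome 15 (oryCun2). Of CSF2 (5 probes, plus strand), IL4 (5 probes, plus strand) and S100A8 (7 probes, plus strand) 1 probe is shown, and the capitals mark the stretch that all probes of the gene share (54, 52 and 12 bases). FPR1 and IL23A have 1 probe each, and no position is given for that of FPR1. Exons are not given, since no annotation of this build was used here.
IL2, chr15:98314800-98314859: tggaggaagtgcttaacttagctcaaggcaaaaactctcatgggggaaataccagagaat
IL2, chr15:98312804-98314819: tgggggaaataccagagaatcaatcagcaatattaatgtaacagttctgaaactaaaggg
IL2, chr15:98312744-98312803: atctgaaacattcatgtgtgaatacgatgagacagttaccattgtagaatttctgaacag
IL2, chr15:98312704-98312763: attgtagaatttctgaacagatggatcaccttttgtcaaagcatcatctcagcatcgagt
CSF2, chr3:15145958-15146017: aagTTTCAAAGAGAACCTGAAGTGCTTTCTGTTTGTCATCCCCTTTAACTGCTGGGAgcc
IL4, chr3:15711367-15711426: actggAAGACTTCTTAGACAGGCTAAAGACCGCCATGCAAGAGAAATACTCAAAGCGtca
S100A8, chr13:39004947-39005006: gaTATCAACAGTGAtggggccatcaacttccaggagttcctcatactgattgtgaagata
FPR1: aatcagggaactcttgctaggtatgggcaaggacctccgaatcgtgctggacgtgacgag
IL23A, chr4:39915840-39915899: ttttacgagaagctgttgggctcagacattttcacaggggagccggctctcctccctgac
The second IL2 probe is split in the genome, its 60 bases lying within 2016 bases of the chromosome. Probe by probe, the log2 difference of PMA-Ionomycin minus LPS at T24 was 4.42 to 4.60 for the CSF2 probes, 4.40 to 4.50 for those of IL4 and -10.05 to -9.69 for those of S100A8. All 4 IL2 probes were higher after PMA-Ionomycin too, but the gene was well above background on no LPS array, so that only a bound is given for it below.

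Levels are log2 signals from which the median of the array was subtracted, and differences are given as PMA-Ionomycin minus LPS on that log2 scale with their standard error. A gene was called when its adjusted p by limma was under 0.05. Of 28789 genes tested at T24, 11292 were called (39.2%), 7207 of them higher after PMA-Ionomycin (25.0%) and 4085 lower (14.2%). Among the called genes 4132 had a gene symbol, 2140 higher and 1992 lower. The difference had the same direction in 4 of 4 rabbits for 10976 called genes, and the 4 arrays of each stimulation did not overlap for 9720. It was at least 2-fold for 5378 genes (3600 higher, 1778 lower) and at least 8-fold for 188 higher and 168 lower genes. Differences of the single rabbits, over all genes, which are not independent replicates, correlated at 0.834 to 0.936 between rabbits. For 13651 genes that were not called, the 95% interval lay within 1.5-fold in both directions. p-values measure the spread between these cultures, of which each rabbit gave 1 per condition. The share of called genes that were higher depended on the scaling. It was 63.8% here, 51.7% with quantile normalization, 51.9% with normexp before it, 47.0% with the processed signal and 49.9% with the deposited log2 table, and the median difference of all genes was 0.06, 0.00, 0.00, -0.20 and -0.11 in the same order. A fold change below compares levels relative to the array medians and is not corrected for that median difference. The groups whose direction depends on the scaling are named where they are described. List medians moved as well, and where they did so by more than 1.5 times their range over the 5 scalings or the value under the other scaling is given beside them. Shares of a list near 25.0% higher or 14.2% lower are those of all genes. The lists count only members found by a gene symbol, and records with a description alone are left out of them.

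**Figure D1:**
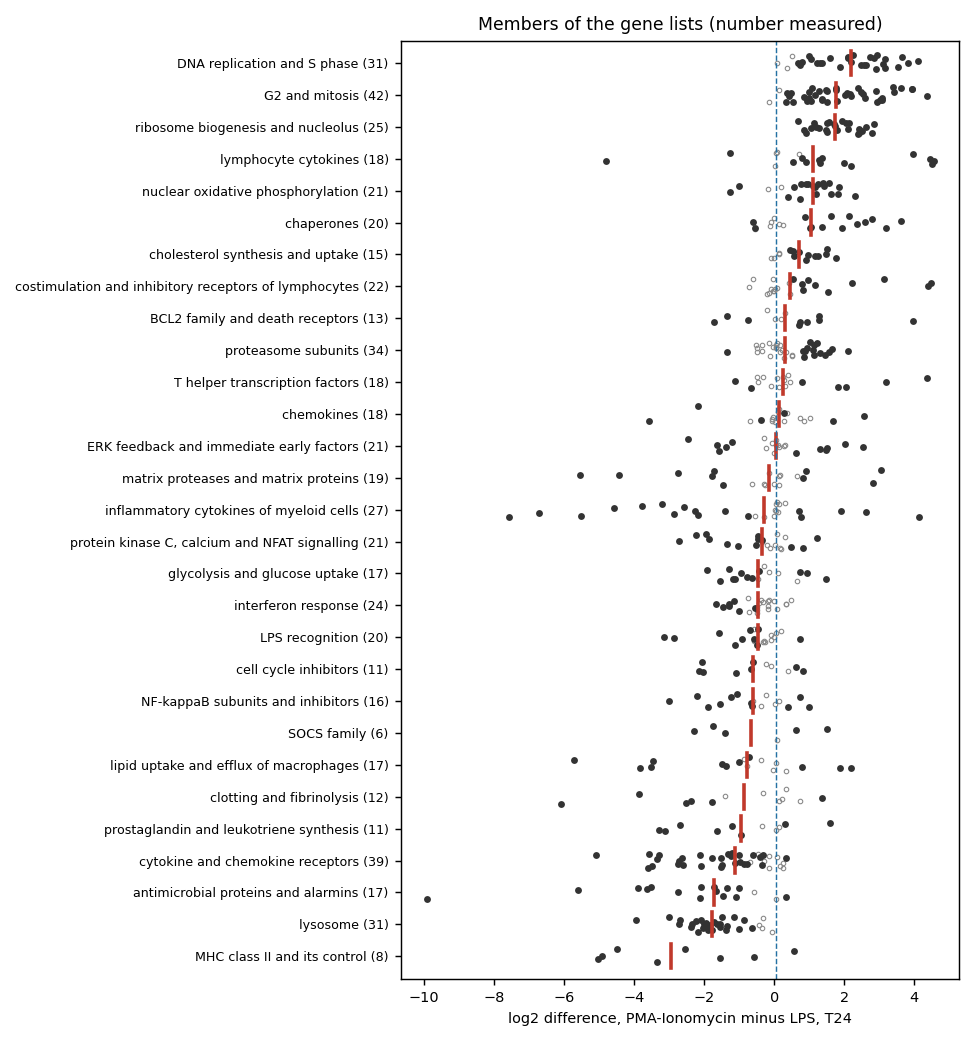
Log2 difference of PMA-Ionomycin minus LPS at T24 for the measured members of 29 gene lists, with the number measured in brackets. Filled points passed an adjusted p of 0.05 by limma, open points did not, red bars are the list medians and the dashed line is the median of all genes (0.06). Lists of cell division and ribosome biogenesis lie at the top and MHC class II, lysosome and antimicrobial proteins at the bottom.

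The 10 largest rises after PMA-Ionomycin among genes with a symbol were those of BCO2, which cleaves carotenoids, RGCC, a regulator of the cell cycle, the cytokines IL2, CSF2, IL4 and IL34, the inhibitory receptor LAG3, the CD27 ligand CD70, the transcription factor ZBTB32 and the mitotic kinase CDK1. RGCC (chr8:53601854-53601910) had levels of 6.74, 6.23, 6.56 and 6.83 in rabbits 1, 2, 4 and 5 after PMA-Ionomycin and 0.74, 0.59, 0.12 and 1.5 after LPS. The groups were far apart and the difference was 5.85 ± 0.23 (57.8-fold, adjusted p = 1.37e-13). BCO2 (chr1:104154564-104154623) had levels of 5.09, 4.74, 4.86 and 5.43 after PMA-Ionomycin. After LPS it lay between -1.02 and -0.79 and was well above background on no array, which puts it at least 59.6-fold higher after PMA-Ionomycin (adjusted p = 2.59e-13). Such a bound divides the mean of the brighter stimulation by that of the dimmer one. Levels of the dimmer stimulation below the lowest signal that the array can tell from background were first set to that signal. Where only some arrays of a stimulation placed a gene well above background, its difference is given as measured. Among the genes with a symbol that are named here, that was so after LPS for IL34, CSF1 and IL22 (1 of 4 arrays), for IL12A, CXCL11, CXCL12 and SLC16A1 (2 arrays) and for ZBTB32, TNFSF10, NR4A2, BCL2L1 and CD1C (3 arrays). After PMA-Ionomycin it was so for IRAK3 (1 array), ABCA1 and PLA2G4A (2 arrays) and ORM1, SERPINB2, PRKCH and IKBKE (3 arrays). CD70 was even between rabbits after PMA-Ionomycin (6.59, 6.68, 6.42 and 6.67), while rabbit 5 stood above the others after LPS (1.78, 1.5, 1.66 and 3.88). LAG3 (chr8:32798144-32798485) ranged over 4.36 to 5.24 against -0.05 to 0.82 (adjusted p = 3.75e-12), and ZBTB32 over 4.08 to 4.97 against -0.44 to 0.54 (adjusted p = 5.40e-12).

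**Figure D2:**
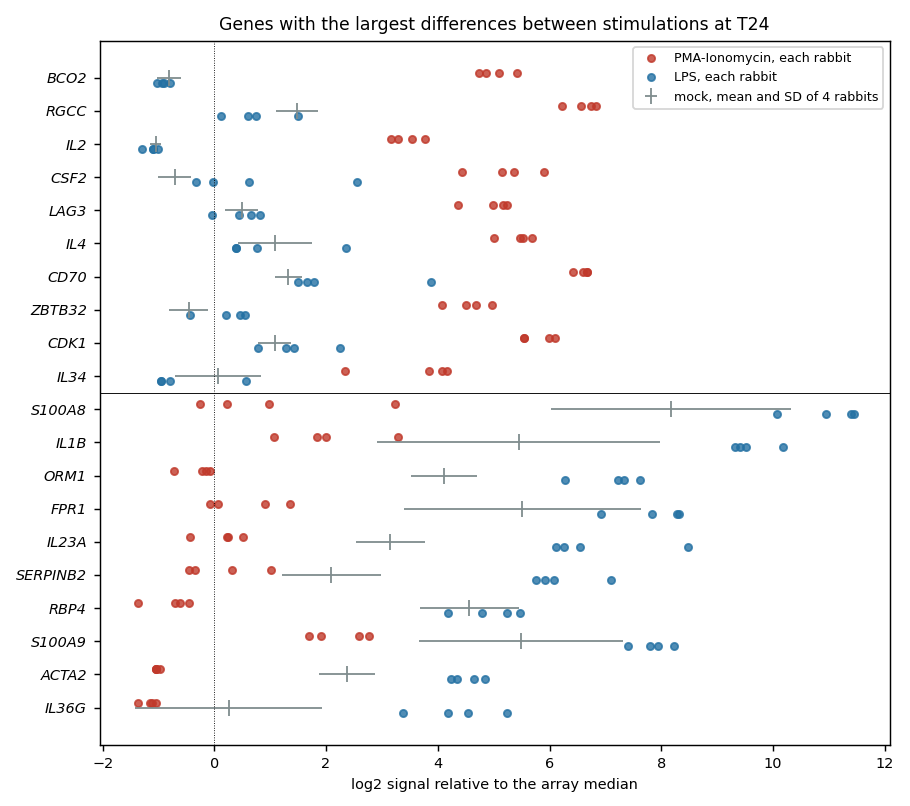
Level (log2 signal minus the array median) of the 10 genes with the largest rises (upper part) and the 10 with the largest falls (lower part) of PMA-Ionomycin against LPS at T24, among genes with a symbol. Each point is 1 rabbit, and the grey cross with its bar is the mean and SD of the 4 mock-stimulated cultures. No gene shown has overlapping stimulations, and S100A8, at 10.07 to 11.44 after LPS and -0.25 to 3.23 after PMA-Ionomycin, is the farthest apart.

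Among 18 measured cytokines of lymphocytes, 12 were higher after PMA-Ionomycin and 2 lower, with a median difference of 1.10 (0.64 to 1.69) against 0.06 for all genes. IFNG is counted among the higher ones only by the mean of its 2 probes, which disagree, so that no direction is read from it. IL21, which was well above background on 2 of the 8 arrays, is counted there too. IL2, the growth factor of T cells, had levels of 3.78, 3.54, 3.28 and 3.15 after PMA-Ionomycin and -1.01, -1.09, -1.09 and -1.30 after LPS. On none of the LPS arrays was it well above background, so that IL2 was at least 21.4-fold higher after PMA-Ionomycin (adjusted p = 3.11e-15). The 4 rabbits were close together in both groups. CSF2, which encodes the growth factor GM-CSF, had 5.90, 4.44, 5.15 and 5.36 after PMA-Ionomycin and 0.62, -0.02, -0.33 and 2.55 after LPS, a difference of 4.51 ± 0.39 (22.8-fold). IL4, the cytokine of type 2 helper T cells, had 5.01, 5.48, 5.68 and 5.53 and 0.38, 0.76, 0.38 and 2.36, a difference of 4.45 ± 0.30 (21.9-fold). For both genes rabbit 5 was the highest of the LPS cultures, and its LPS level still lay below every PMA-Ionomycin level. FASLG, which triggers apoptosis through FAS, was higher by 3.98 ± 0.13 (15.7-fold), with 3.52 to 3.83 against -0.35 to -0.18.

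IL13, IL17A and TNFSF11, the ligand RANKL, were well above background on all PMA-Ionomycin arrays and on no LPS array. They were at least 3.82-fold, 4.47-fold and 2.31-fold higher after PMA-Ionomycin (adjusted p = 4.19e-10, 2.92e-06 and 7.35e-08), from means of 1.17 ± 0.26, 1.32 ± 0.66 and 0.24 ± 0.10 (SD, n = 4) against -0.84 ± 0.25, -0.87 ± 0.10 and -1.07 ± 0.03. IL9 (1.27 ± 0.16), TNFSF14 (1.37 ± 0.17) and LTA, lymphotoxin alpha (0.80 ± 0.16), were also higher, though LTA was not called with quantile normalization, alone or after normexp. LTB, lymphotoxin beta, went the other way. It had levels of 1.73, 2.02, 1.72 and 0.68 after PMA-Ionomycin and 5.89, 6.46, 5.77 and 7.30 after LPS, a difference of -4.81 ± 0.39 (28.1-fold lower, adjusted p = 1.99e-09), with 6.48 ± 0.84 in mock-stimulated cultures. TNFSF8, the CD30 ligand, was at least 2.22-fold lower (mean -1.12 ± 0.11 against 0.15 ± 0.59, adjusted p = 2.51e-05). IL22 was not called (0.70 ± 0.34, 95% interval -0.01 to 1.41, adjusted p = 0.118), but it was when only the 8 arrays were fitted and without rabbit 2 (1.01). IL5, IL26 and CD40LG were well above background in neither group.

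The 2 probes of IFNG, the interferon of activated T and NK cells, contradicted each other. One had 4.97 to 5.37 after PMA-Ionomycin and 6.78 to 7.56 after LPS, a difference of -2.01, with 5.73 to 7.40 in mock-stimulated cultures. The probe added with the immune gene set had 1.90 to 3.43 after PMA-Ionomycin and -1.09 to -1.05 after LPS, where it was well above background on no array, a difference of 3.84. Both differences were called when probes were fitted singly (adjusted p = 9.90e-08 and 7.83e-10). The mean of both probes (0.92 ± 0.15) therefore describes neither probe, it was not called with quantile normalization, alone or after normexp, and no direction is given for IFNG.

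**Figure D3:**
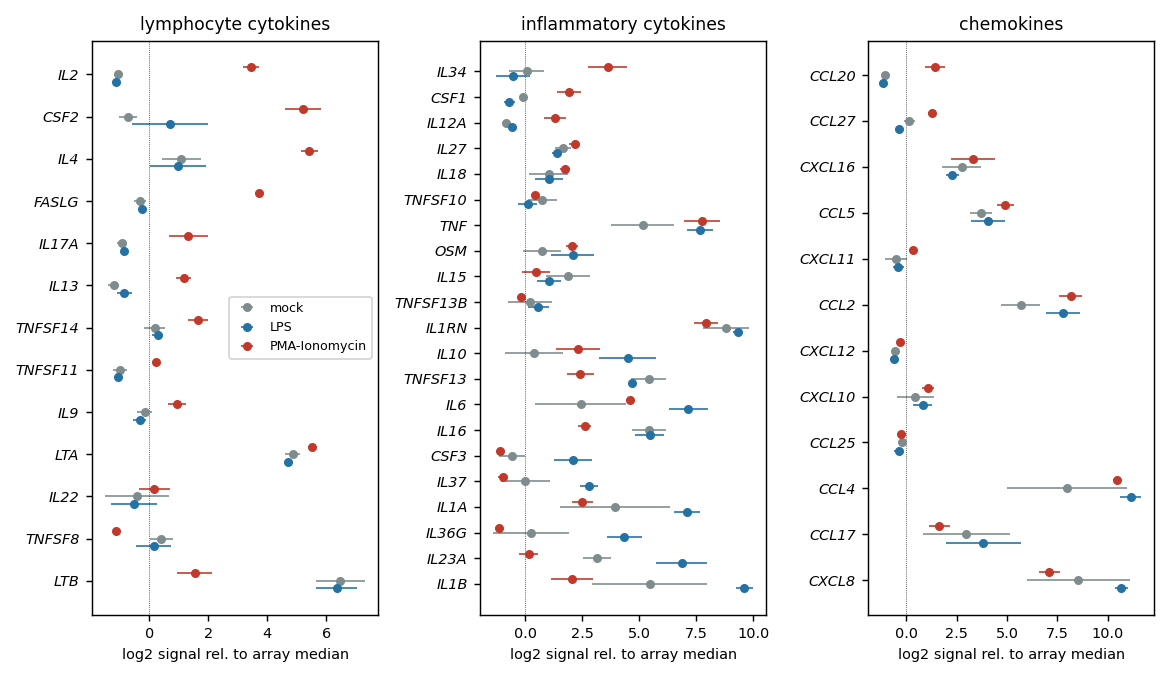
Mean log2 signal relative to the array median, with SD over 4 rabbits, of the lymphocyte cytokines, inflammatory cytokines and chemokines that every array of LPS or every array of PMA-Ionomycin placed well above background at T24 (IFNG left out). Genes are ordered by their difference, and IL2 and IL1B lie at opposite ends of their panels, IL2 with its mean at 3.44 after PMA-Ionomycin and at -1.12 after LPS.

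Of 22 measured costimulatory and inhibitory receptors and ligands, 10 were higher and 0 lower (1 or 2 lower with quantile normalization, the processed signal, normexp or the deposited table), with a median of 0.44 (0.19 to 0.44). CTLA4, an inhibitory receptor that competes with CD28, had levels of 3.65, 3.43, 3.50 and 3.68 after PMA-Ionomycin and 0.33, 0.63, 0.61 and 0.16 after LPS (3.13 ± 0.17, 8.75-fold). CRTAM, a receptor of activated cytotoxic cells, was at least 4.51-fold higher (adjusted p = 4.86e-10), being well above background on no LPS array. CD80, CD86 and CD83, which mark activated antigen-presenting cells, were not called (all between -0.19 and 0.00). Among 18 transcription factors of T helper cells, 5 were higher (25.0% of all genes were) and 2 lower, but 4 and 5 with the processed signal and 5 and 5 with the deposited table. STAT4, which transmits the IL-12 signal, was higher by 3.20 ± 0.20 (4.65 to 5.28 against 1.57 to 2.04) and BATF by 2.04 ± 0.25. FOXP3 and GATA3 were not called (0.25 and -0.31), and RUNX1 (-1.13) and RORA (-0.67) were lower. These members other than ZBTB32, STAT4 and BATF were chosen after their values were seen.

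The 10 largest falls among genes with a symbol were those of the alarmins S100A8 and S100A9, the cytokines IL1B, IL23A and IL36G, the acute-phase protein ORM1, the formyl peptide receptor FPR1, the protease inhibitor SERPINB2, the retinol carrier RBP4 and the actin ACTA2. Marker genes of monocytes moved with them. Of 16 measured monocyte markers 0 were higher and 12 lower after PMA-Ionomycin, with a median of -1.49 (-2.28 to -1.49). Their summed signal, in log2 relative to the array median, was 6.93 to 7.53 after PMA-Ionomycin, 9.34 to 10.38 after LPS and 9.22 to 10.32 in mock-stimulated cultures. CD14, the LPS receptor of monocytes, had levels of 6.29, 4.73, 5.44 and 5.44 after PMA-Ionomycin and 9.14, 8.57, 8.90 and 7.88 after LPS, a difference of -3.15 ± 0.26 (8.85-fold lower). It remained well above background on all 8 arrays, as did CSF1R, the receptor of CSF1 and IL34 (-3.30 ± 0.31), and TYROBP, a signalling adaptor of myeloid cells (-2.69 ± 0.16). FPR1, by which phagocytes sense bacterial peptides, had levels of 0.90, -0.07, 0.06 and 1.35 after PMA-Ionomycin and 8.32, 8.29, 7.83 and 6.93 after LPS, a difference of -7.28 ± 0.58 (156-fold lower, adjusted p = 1.31e-09). Its groups were far apart. VCAN and CLEC7A were well above background on no PMA-Ionomycin array, while ITGAM was not called (-0.06). In such whole cultures, fewer monocytes and less RNA of a gene per monocyte cannot be told apart. The part of the marker difference in the results on myeloid genes that follow was not tested.

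For 12 B cell markers 2 were higher (1 without rabbit 1, 2 or 4 and under 4 other scalings) and 5 lower. Their summed signal was 7.53 to 8.39 after PMA-Ionomycin and 7.75 to 9.54 after LPS. FCRLA (-3.98 ± 0.34), BLNK (-2.23 ± 0.24) and BLK (1.61 ± 0.27) showed both signs, whereas CD79B was not called (-0.13). MS4A1, the CD20 antigen, was lower by its mean (-2.38 ± 0.21), by -3.52 and -3.14 with 2 of its probes and by -0.47 with the third, which was not called. For 16 T cell markers 5 were higher (25.0% of all genes were) and 3 lower (14.2%), with summed signals that overlapped (4.60 to 4.90 against 4.70 to 5.24) and a median of -0.05. Without rabbit 1, without rabbit 5 and without the rabbit block 3 were higher. With the processed signal 3 were higher and 5 lower (median -0.42), and it was 3 higher and 3 lower with the deposited table. CD4 and BCL11B were well above background on no array of T24. All 3 called NK markers of 4 were higher, NCR3 by 1.10 ± 0.18 and PRF1, perforin, by 0.66 ± 0.17, a call that was lost with the processed signal (summed signal 2.60 to 3.16 against 1.95 to 2.40). The summed signal of 7 neutrophil markers was 10.07 to 10.88 after PMA-Ionomycin and 12.17 to 12.55 after LPS, but 8.89 to 12.30 in mock-stimulated cultures. The list itself gave 1 higher, 3 lower and 3 not called, with a median of -0.01 (-0.28 to -0.01), and the sum lay close to the level of MMP9 alone (mean 10.53 against 12.32). Of these 7, CAMP and LTF were well above background on no PMA-Ionomycin array, MMP9 was lower (-1.79 ± 0.42) and ARG1, arginase, was higher by 2.74 ± 0.57. Of 9 platelet markers 2 were higher and 0 lower (25.0% of all genes were higher). The higher count was 1 without rabbit 1 or 5, without the rabbit block and under 4 other scalings. The processed signal also gave 1 lower. Their summed signal was 3.56 to 4.01 after PMA-Ionomycin and 2.90 to 3.20 after LPS. Only 3 of the 9 stood well above background throughout at least 1 stimulation. The record of platelet microbicidal protein 1, which has a description but no symbol, is not among the 9. That record was lower, with 0.67 to 1.62 against 4.70 to 5.52 (-4.03 ± 0.33). Of 6 erythrocyte markers 1 was lower (14.2% of all genes were), AHSP (-0.51), a call that was lost without the rabbit block. Dendritic cell markers gave 1 higher and 4 lower of 7, and CD1C, which presents lipids to T cells, was the higher one (1.76 to 2.84 against -0.87 to 0.02, 2.75 ± 0.36).

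**Figure D4:**
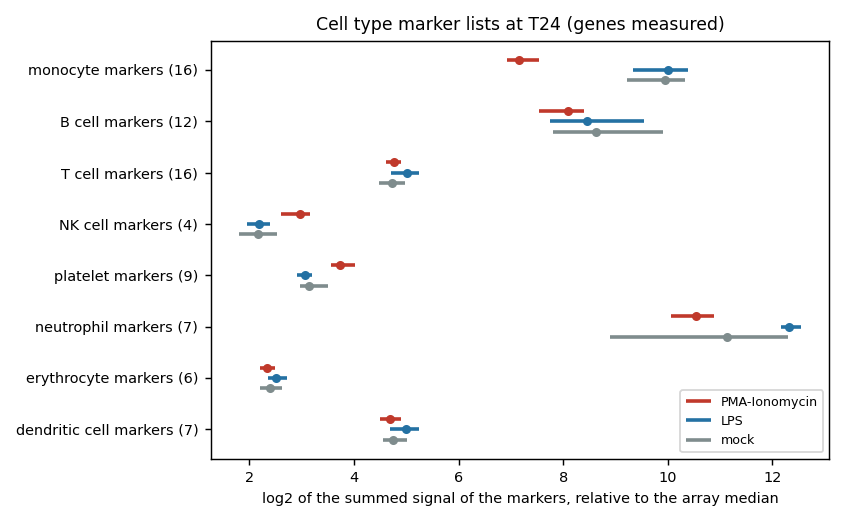
Log2 of the summed signal of the measured markers of 8 cell types at T24, relative to the array median, with the number of genes in brackets. Bars span the lowest and highest of 4 rabbits and points are means. The monocyte list after PMA-Ionomycin (6.93 to 7.53) lies below the lowest LPS culture (9.34) and the lowest mock-stimulated culture (9.22).

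Alarmins and acute-phase proteins were lower after PMA-Ionomycin. Of 17 antimicrobial proteins and alarmins 14 were lower and 1 was higher, with a median of -1.73. S100A8, a calcium-binding alarmin of myeloid cells (chr13:39004759-39005008), had levels of 3.23, 0.23, -0.25 and 0.97 after PMA-Ionomycin and 11.39, 10.96, 11.44 and 10.07 after LPS. The difference was -9.92 ± 0.56 (971-fold lower, adjusted p = 1.33e-11), far beyond the spread of the 4 rabbits, of which rabbit 1 kept the highest level after PMA-Ionomycin. Its partner S100A9 was lower with both probes, by -9.79 with one and by -1.41 with the other. ORM1, an acute-phase plasma protein, had -0.07, -0.72, -0.22 and -0.14 after PMA-Ionomycin and 6.28, 7.23, 7.34 and 7.61 after LPS (-7.40 ± 0.32, 169-fold lower). LCN2, which binds bacterial siderophores, varied between rabbits after LPS (5.22, 4.24, 1.88 and 0.67) and was well above background on no PMA-Ionomycin array, at least 14.4-fold lower (adjusted p = 3.18e-06). CYBB, the catalytic subunit of the phagocyte NADPH oxidase, was lower (-3.64 ± 0.26). NOS2, the 1 higher member, was well above background on no array of either stimulation. The summed signals of the monocyte and neutrophil markers, though only 3 of the 7 neutrophil markers singly, were lower in the same cultures, and their part in these differences was not tested.

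The inflammatory cytokines of myeloid cells split, 12 of 27 being lower and 5 higher after PMA-Ionomycin, with a median of -0.28 (-1.14 to -0.28). Of all genes 25.0% were higher. IL1B had levels of 1.83, 1.07, 1.99 and 3.29 after PMA-Ionomycin and 10.18, 9.41, 9.33 and 9.51 after LPS, a difference of -7.56 ± 0.74 (189-fold lower, adjusted p = 2.89e-08). The gene IL23A, the p19 subunit of IL-23, had 0.52, 0.24, -0.43 and 0.22 and 8.49, 6.25, 6.11 and 6.55 (-6.71 ± 0.46, 105-fold lower). The means of the mock-stimulated cultures lay between both stimulations for each (5.45 ± 2.53 and 3.15 ± 0.61). IL36G, CSF3 and IL37 were well above background on all LPS arrays and on no PMA-Ionomycin array, and were at least 40.3-fold, 8.51-fold and 13-fold lower (adjusted p = 6.75e-09, 2.18e-07 and 2.61e-10). IL1A was lower (-4.58 ± 0.62), IL16 (-2.86 ± 0.23), TNFSF13, the B cell factor APRIL, (-2.26 ± 0.24) and IL1RN, the antagonist of IL-1, (-1.41 ± 0.26). IL6 had 4.51, 4.84, 4.49 and 4.50 after PMA-Ionomycin and 7.95, 7.69, 6.98 and 5.99 after LPS (-2.57 ± 0.53, 5.93-fold lower). The PMA-Ionomycin cultures were close together, while the LPS cultures ranged from 5.99 to 7.95.

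IL10, an anti-inflammatory cytokine, did not behave alike in all rabbits. Its differences were -4.02, -3.59, -1.95 and 0.82 in rabbits 1, 2, 4 and 5, so that rabbit 5 had the opposite sign. The mean difference of -2.18 ± 0.62 (adjusted p = 0.00674) was no longer called without rabbit 1 (-1.57) or without rabbit 2 (-1.72), and was -3.19 without rabbit 5. The 5 cytokines that were higher after PMA-Ionomycin were IL34 (4.14 ± 0.37), CSF1 (2.62 ± 0.18), IL12A (1.89 ± 0.25), IL27 (0.77 ± 0.19) and IL18 (0.72 ± 0.22). IL34 and CSF1 were well above background on 1 LPS array each and IL12A on 2. IL34 and CSF1 encode the ligands of CSF1R. Levels of IL34 were 4.08, 4.16, 3.85 and 2.34 after PMA-Ionomycin and -0.80, -0.96, -0.96 and 0.57 after LPS, and rabbit 5 had both the lowest PMA-Ionomycin and the highest LPS level. The call of IL18 was lost without rabbit 1 (0.70), 2 (0.68) or 4 (0.57), without the rabbit block, and with normexp, the processed signal or the deposited table, and that of IL27 with the processed signal. That of TNFSF13B (-0.75) was lost without rabbit 2, 4 or 5, with quantile normalization, alone or after normexp, without the rabbit block and with the slide as a further block.

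TNF, the main early cytokine of inflammation, was not called, with 8.41, 8.20, 7.73 and 6.64 after PMA-Ionomycin and 8.46, 7.60, 7.31 and 7.22 after LPS. The difference was 0.10 ± 0.41 (95% interval -0.76 to 0.95, adjusted p = 0.914), and both stimulations lay above the mock-stimulated cultures (5.15 ± 1.39). Its 5 probes gave 0.00 to 0.21, and other scalings turned the sign. OSM (-0.02 ± 0.33, interval -0.71 to 0.68) and IL15 (-0.56 ± 0.30, interval -1.18 to 0.06) were not called either, nor was TNFSF10 (0.31 ± 0.24). IL15 was called when only the 8 arrays were fitted.

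Of 18 measured chemokines, 3 were higher (25.0% of all genes were), 3 lower (14.2% of all genes, and 1 without rabbit 1) and 12 not called, with a median of 0.13 that was -0.04 with the deposited table. The records of ENA-78 (-5.94) and lymphotactin (2.69), which have a description but no symbol, are not among the 18. CXCL8, which attracts neutrophils, had 7.57, 6.60, 6.69 and 7.51 after PMA-Ionomycin and 11, 10.77, 10.66 and 10.22 after LPS (-3.57 ± 0.61, 11.9-fold lower). CCL20, the ligand of CCR6, was well above background on no LPS array and at least 5.31-fold higher after PMA-Ionomycin (adjusted p = 1.21e-10). The others that were called were CCL27 (1.67 ± 0.13), CXCL12 (0.29 ± 0.11), CCL14, which was well above background on only 2 arrays, both after LPS, and CCL17 (-2.18 ± 0.75). Levels of CCL17 after LPS ran from 2.27 to 6.15, and the call was lost without rabbit 1 (-1.83) or rabbit 5 (-1.30). That of CXCL12 was lost without rabbit 1, 2 or 5, under all 4 other scalings and when only the 8 arrays were fitted. For CCL2, CCL4 and CCL5, which attract monocytes and T cells, the differences were 0.37 ± 0.55, -0.70 ± 0.73 and 0.84 ± 0.40, with intervals of -0.77 to 1.51, -2.23 to 0.82 and 0.01 to 1.68 before adjustment (adjusted p = 0.703, 0.548 and 0.110). CCL4 levels were 10.24 to 10.62 after PMA-Ionomycin and 10.46 to 11.69 after LPS, both above the mock mean of 7.96 ± 2.97. The interferon-induced chemokines CXCL10 (0.27 ± 0.41) and CXCL11 (0.74 ± 0.40) were not called, nor were CXCL16 (1.02 ± 0.53) and CCL25 (0.11 ± 0.14). When only the 8 arrays were fitted, CCL4, CXCL11 and CXCL16 were called, CXCL16 also without rabbit 1 (1.47), and CCL5 was called with array weights (0.83) or without rabbit 5 (1.40).

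Receptors for cytokines and chemokines were mostly lower, 28 of 39 against 1 higher, with a median of -1.13 (-2.08 to -1.01). The decoy receptor IL1R2 had the largest fall, with 0.93, 0.08, -0.51 and -0.22 after PMA-Ionomycin and 5.77, 5.65, 5.07 and 4.10 after LPS (-5.08 ± 0.54, 33.7-fold lower). Receptor chains of both interferon types followed, IFNGR2 (0.12 to 0.30 against 3.22 to 4.23, -3.60 ± 0.23) and IFNAR2 (-3.59 ± 0.23). CXCR4, which holds lymphocytes in bone marrow and lymph nodes, was lower (-3.49 ± 0.22). IFNGR1 (-3.34), IL2RG, the shared chain of the IL-2 family receptors (-2.73), IL10RB (-2.64) and IFNAR1 (-1.78), chosen after their values were seen, were also lower. IL4R, CXCR2 and CX3CR1 were not called (0.26, 0.08 and -0.14). The monocyte marker sum was lower in the same cultures, as given above, and its part was not tested.

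Of 20 genes of LPS recognition, 9 were lower (14 with the processed signal) and 1 higher, with a median of -0.47 (-0.99 to -0.47). Next to CD14 these were IRAK3, an inhibitor of the pathway (-2.85 ± 0.17), TLR3 (-1.58 ± 0.35) and LY96 (-1.13 ± 0.24). TLR4 itself (-0.58), TLR2 (-0.47) and MYD88 (-0.70) were lower by less than 2-fold, and TRAF6 and IRAK1 were not called (0.20 and 0.04). TLR10 was the higher one (0.73 ± 0.24). Its call was lost without rabbit 1, 2 or 4, and under 4 other scalings.

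Antigen presentation by MHC class II was the list with the lowest median, -2.94, 7 of its 8 measured members being lower and 1 higher. RLA-DR-ALPHA, the alpha chain of the DR molecule, had levels of -0.25, 0.31, -0.18 and -0.17 after PMA-Ionomycin and 4.98, 5.21, 4.20 and 5.46 after LPS, a difference of -5.04 ± 0.38 (32.8-fold lower, adjusted p = 6.13e-10). CD74, the invariant chain that escorts class II molecules (chr3:32151854-32151913), had 1.36, 1.25, 1.45 and 1.76 and 6.38, 6.52, 5.46 and 7.18 (-4.93 ± 0.37). The groups were more than 3 log2 units apart for both. HLA-DOA (-4.50 ± 0.45) and RLA-DMA (-3.34 ± 0.23), which control peptide loading, and RLA-DMB (-2.55) were lower too, as were the protease CTSS (-1.56) and RFX5 (-0.59). RFXAP, a partner of RFX5 in the factor that drives class II genes, was higher (0.56). In mock-stimulated cultures CD74 had 6.15 ± 1.07 (SD, n = 4), and between LPS and mock 0 of the 8 members were called. Of markers of cells that carry class II molecules, the monocyte sum was lower in the same cultures, 5 of 12 B cell markers were lower and 2 higher with summed signals that overlapped, and 4 of 7 dendritic cell markers were lower and 1 higher, and their part was not tested.

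Lysosome genes were lower in 27 of 31 cases and higher in 0, with a median of -1.79 (-2.24 to -1.95 under the other scalings). CTSK, the collagen-cleaving cathepsin K, had 4.96, 4.50, 4.33 and 4.20 after PMA-Ionomycin and 9.20, 8.89, 8.01 and 7.66 after LPS (-3.94 ± 0.36, 15.4-fold lower). The calcium channel MCOLN1 (-3.02 ± 0.27) and ATP6AP1, a subunit of the proton pump (-2.73 ± 0.29), had the next largest falls. CTSB, CTSD and LAMP1, chosen after their values were seen, were lower as well (-2.34, -2.09 and -1.39). In lipid handling by macrophages, 8 of 17 genes were lower and 3 higher. RBP4, the retinol carrier, was well above background on no PMA-Ionomycin array and at least 50.4-fold lower (4.18 to 5.48 after LPS, adjusted p = 7.60e-14). PLIN2, the coat of lipid droplets (-3.84 ± 0.39), the cholesterol exporter ABCA1 (-3.51 ± 0.23) and lysosomal lipase LIPA (-3.47 ± 0.20) followed, while FABP5 (1.88) was higher, as were FABP4 and APOE, both well above background on no LPS array. For these lists too, the monocyte markers were lower in the same cultures and their part was not tested.

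Genes of cell division were higher after PMA-Ionomycin. Of 31 measured genes of DNA replication and S phase 28 were higher and 0 lower (median 2.21), and of 42 genes of G2 and mitosis 40 were higher and 0 lower (median 1.76). CDK1 had levels of 6.11, 5.53, 5.99 and 5.54 after PMA-Ionomycin and 1.28, 0.79, 1.42 and 2.24 after LPS, a difference of 4.36 ± 0.22 (20.5-fold, adjusted p = 2.62e-12). Its cyclin CCNB1 had 6.33, 5.45, 6.01 and 5.62 and 2.0, 1.17, 1.57 and 2.91 (3.94 ± 0.23). In both, rabbit 5 had the highest LPS level. The condensin subunit NCAPG (3.93 ± 0.18) and the kinetochore protein NDC80 (3.63 ± 0.24) were next, and MKI67, the Ki-67 antigen, was higher by 3.02. For replication, ORC6 of the origin recognition complex (4.20 to 4.71 against 0.11 to 0.65, 4.11 ± 0.18), the helicase subunit MCM6 (3.82 ± 0.23), the clamp loader RFC4 (3.64 ± 0.23) and thymidylate synthase TYMS (3.54 ± 0.16) had the largest differences, and PCNA was higher by 3.17. RACGAP1 (-0.14) and KIF20A (0.12) of the mitotic genes and RPA1 (0.07), RPA2 (0.52) and E2F8 (0.35) of the replication genes were not called. Inhibitors of the cell cycle were lower in 6 of 11 cases and higher in 2. BTG2 (-2.15 ± 0.23), BTG1 (-2.05 ± 0.18) and the kinase inhibitor CDKN1B (-1.09 ± 0.17) fell, and FOXO3 was at least 4.19-fold lower (adjusted p = 5.14e-09), whereas CDKN2C (0.83) and RB1 (0.62) were higher and CDKN1A was not called (0.40).

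Genes of protein synthesis and energy supply were higher too. All 25 measured genes of ribosome biogenesis were higher after PMA-Ionomycin, by 0.69 to 2.84 (median 1.72). DKC1, which modifies ribosomal RNA, had 7.02, 8.21, 7.49 and 7.66 after PMA-Ionomycin and 3.96, 5.10, 4.78 and 5.17 after LPS (2.84 ± 0.26), and the nucleolar proteins NOP58 (2.79 ± 0.22), LYAR (2.62 ± 0.16) and WDR75 (2.51 ± 0.16) were close to it. Of 20 chaperones 12 were higher and 2 lower (median 1.04, range 0.57 to 1.04, and 6 lower with quantile normalization). These included the mitochondrial pair HSPD1, with 7.76, 7.61, 7.66 and 7.46 against 4.10, 3.73, 3.71 and 4.43 (3.63 ± 0.16), and HSPE1 (3.19 ± 0.20), and the cytosolic HSPH1 (2.79 ± 0.13) and HSPA14 (2.60 ± 0.18). The chaperones of the endoplasmic reticulum HSPA5, HSP90B1 and CANX had -0.55, -0.10 and -0.61, of which that of CANX was called. Nuclear genes of oxidative phosphorylation were higher in 17 of 21 cases and lower in 2 (median 1.10), but 13 were higher and 3 lower with quantile normalization and 13 and 5 with normexp before it (median 0.49 with both). The largest rises were those of NDUFA4 (2.30 ± 0.17), NDUFC2 (1.85 ± 0.18), UQCRB (1.81 ± 0.19) and NDUFB6 (1.63 ± 0.19). Cholesterol synthesis was higher in 11 of 15 cases and lower in 0, led by SQLE (1.78 ± 0.19), ACAT2 (1.51 ± 0.24) and CYP51A1 (1.49 ± 0.16).

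Glucose metabolism did not follow the same direction. Of 17 genes 9 were lower and 3 higher (median -0.45, range -1.17 to -0.45), and the 2 lactate transporters differed in sign, SLC16A3 being lower (-1.93 ± 0.18) and SLC16A1 higher (1.47 ± 0.18). Transketolase TKT (-1.55 ± 0.29) and hexokinase HK2 (-1.28 ± 0.27) were lower. The proteasome depended on the scaling. Of 34 subunits 14 were higher and 1 lower with a median of 0.30, but 11 were higher and 11 lower with quantile normalization (median -0.30) and 11 and 12 with normexp before it (median -0.29). PSMB9, a subunit of the immunoproteasome, was the most different (2.12 ± 0.31), followed by PSMC6 (1.65 ± 0.14), PSME3 (1.56 ± 0.13) and PSMA2 (1.46 ± 0.17), and PSMB8 was not called (-0.13).

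In the pathways that the agents act on, genes of protein kinase C, calcium and NFAT signalling were lower in 10 of 21 cases and higher in 3 (median -0.35, range -1.11 to -0.19), but lower in 6 without rabbit 2. PRKCD, a protein kinase C, had 2.13, 1.29, 1.95 and 1.83 after PMA-Ionomycin and 5.02, 4.54, 4.21 and 4.35 after LPS (-2.73 ± 0.27), and PPP3CA, the catalytic subunit of calcineurin (-2.24 ± 0.27), PRKCH (-1.96 ± 0.17) and RASGRP2 (-1.85 ± 0.24) were lower. RCAN1 (0.83) was higher. Of 21 ERK feedback genes and immediate early factors 6 were higher (25.0% of all genes were) and 5 lower (14.2%). Their median of 0.05 was close to that of all genes (0.06) and turned negative under 4 other scalings (-0.27 to -0.01). MYC, which drives growth, was higher (4.08 to 4.29 against 1.28 to 2.15, 2.53 ± 0.17), as was NR4A2 (2.03 ± 0.22), while IER3 (-2.47 ± 0.29) and the ERK phosphatase DUSP6 (-1.65 ± 0.21) were lower. EGR1, FOS and NR4A1 were not called (0.04, 0.14 and 0.05). The monocyte marker sum was lower in the same cultures, and its part in the differences of these signalling genes, and of the NF-kappaB and interferon response genes that follow, was not tested.

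Of 16 genes of NF-kappaB 8 were lower and 3 higher (median -0.61), but 10 were lower and 1 higher with the processed signal (median -1.19) and 9 and 2 with the deposited table. NFKBIZ, a nuclear cofactor, had 1.16, 1.12, 1.01 and 0.98 after PMA-Ionomycin and 4.83, 4.59, 3.14 and 3.73 after LPS (-3.0 ± 0.34), and the inhibitor NFKBIA (-2.21 ± 0.27), BCL3 (-1.90 ± 0.18) and IKBKE (-1.55 ± 0.17) were lower. The subunit REL was higher (1.00), and NFKB1 was not called (0.13). Of 6 SOCS genes, feedback inhibitors of cytokine receptors, SOCS2 (-2.29 ± 0.33), SOCS3 (-1.74 ± 0.28) and SOCS5 (-1.41 ± 0.17) were lower and SOCS1 (1.52 ± 0.27) and SOCS4 (0.61) higher. Interferon response genes were lower in 7 of 24 cases and higher in 0 (median -0.46, range -0.92 to -0.46), in 8 to 11 cases under the other scalings and in 3 without rabbit 2. The antiviral IFIT3 (-1.66 ± 0.42), DHX58 (-1.47 ± 0.30), IRF9 (-1.30 ± 0.25) and OASL (-1.29 ± 0.44) had the largest falls. The calls of IFIT3 (-1.37) and OASL (-0.89) were lost without rabbit 2, while ISG15 was not called (-0.44).

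Genes of clotting and fibrinolysis were lower in 5 of 12 cases and higher in 1 (2 without rabbit 1 or 5). SERPINB2, an inhibitor of plasminogen activators, had 0.32, -0.45, -0.36 and 1.01 after PMA-Ionomycin and 7.10, 5.76, 6.09 and 5.92 after LPS (-6.09 ± 0.36, 68.0-fold lower). THBS1, thrombospondin, was lower by -5.47 to -4.73 with 3 probes and by -0.19, not called, with the fourth. F3, tissue factor, was not called (-1.41). Among matrix genes, 6 of 19 were lower and 4 higher, beside 14.2% and 25.0% of all genes, and 2 were higher without rabbit 1, without rabbit 4 and with normexp before quantile normalization. ACTA2, the smooth muscle actin, had 4.24 to 4.85 after LPS and was well above background on no PMA-Ionomycin array, at least 44.9-fold lower (adjusted p = 6.87e-14), and MGP, an inhibitor of calcification, was lower (-4.43 ± 0.25). SPP1, osteopontin, had 9.99, 9.75, 8.78 and 7.97 after PMA-Ionomycin and 7.38, 6.63, 6.09 and 5.11 after LPS (2.82 ± 0.57), each rabbit being higher after PMA-Ionomycin. COL1A2, a collagen chain, was higher with 10 of its 11 probes, and the other was well above background in neither group. In prostaglandin and leukotriene synthesis 6 of 11 genes were lower and 2 higher (1 without rabbit 1 or 2), with ALOX5AP (-3.30 ± 0.52), PLA2G4A (-2.68 ± 0.27) and PTGER4 (-1.64 ± 0.30) lower and TBXAS1 at least 8.02-fold lower (adjusted p = 1.25e-10). ALOX5AP ranged over 2.0 to 5.87 after LPS and was lower after PMA-Ionomycin in each rabbit although the groups overlapped. Of 13 genes of the BCL2 family and death receptors 6 were higher and 3 lower, but 4 and 4 with quantile normalization, alone or after normexp, BCL2L1 (1.29 ± 0.25) being higher and BCL2A1 (-1.72 ± 0.32) and BAX (-1.36 ± 0.23) lower. The monocyte marker sum was lower in these cultures as well, and its part was not tested.

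At T4 the same comparison gave 8588 called genes (29.8%), 5581 higher after PMA-Ionomycin (19.4%) and 3007 lower (10.4%). Of the genes called at T24, 3375 were called at T4 in the same direction, 2143 in the opposite direction and 5774 were not called at T4. The change of the difference from T4 to T24 itself passed an adjusted p of 0.05 for 10362 genes (36.0%), 5683 upward (19.7%) and 4679 downward (16.3%). The T4 arrays with the fewest spots well above background were those of PMA-Ionomycin rabbit 2 (52.6%) and LPS rabbit 4 (51.4%), and the change was called for 8577 genes without rabbit 2 and for 8714 without rabbit 4.

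Lists that differed alike at T24 had different histories. The mitotic genes moved upward in 37 of 42 cases, and at T4 18 of them had been lower after PMA-Ionomycin and 1 higher (median -0.39). CDK1 went from a difference of -1.09 at T4 to 4.36 at T24, a change of 5.45 ± 0.31 (adjusted p = 6.13e-11), and NCAPG and NDC80 changed by 5.37 and 5.07. Replication genes moved upward in 26 of 31 cases from a T4 median of 0.33. Ribosome biogenesis was higher at both times in 25 of 25 genes, with medians of 2.07 at T4 and 1.72 at T24. Oxidative phosphorylation genes moved upward in 15 of 21 cases from a T4 median of -0.02. The lysosome turned round, 22 of its genes being higher after PMA-Ionomycin at T4 (median 1.11) and 29 of 31 moving downward, and CTSK for example changed from 1.13 to -3.94. Of the 8 class II genes, 1 was higher and 3 were lower at T4 (median -0.16), and 1 moved upward and 4 downward. CD74 and RLA-DR-ALPHA went from 0.90 to -4.93 and from 0.45 to -5.04. Monocyte markers moved downward in 14 of 16 cases and upward in 0, from a T4 median of 0.15 (4 higher, 2 lower) to -1.49, and their part in the changes of the lysosome and class II genes was not tested. ERK feedback genes were higher in 19 of 21 cases at T4 (median 1.60) and moved downward in 18. Glycolysis was higher in 13 of 17 genes at T4 (median 0.85) and moved downward in 12. Interferon response genes were lower in 17 of 24 cases at T4 (median -1.23), and 9 of them moved upward and 5 downward.

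**Figure D5:**
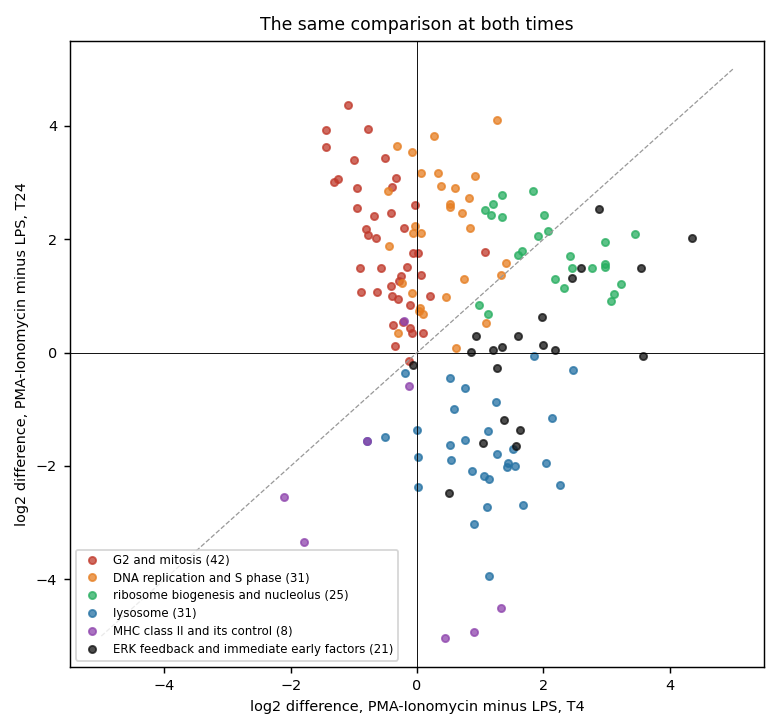
Log2 difference of PMA-Ionomycin minus LPS at T4 (horizontal axis) and at T24 (vertical axis) for the members of 6 gene lists, 1 point per gene, with the number measured in brackets. The dashed line marks equal differences. Mitotic genes lie mostly left of 0 and high, ribosome biogenesis genes are above 0 at both times, and most lysosome genes lie right of 0 and below it.

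Single cytokines also changed with time. CSF2 differed by 7.29 at T4 and IL4 by 6.78, more than at T24, the change being -2.77 ± 0.55 (adjusted p = 3.82e-04) and -2.33 ± 0.43 (adjusted p = 1.69e-04). IL2 and IL13 were well above background on no LPS array of T4 either, and their mean levels after PMA-Ionomycin were 4.55 and 6.24 at T4 and 3.44 ± 0.28 and 1.17 ± 0.26 at T24. IL34 was well above background on no LPS array and on 2 PMA-Ionomycin arrays of T4. IL1B (-0.47, adjusted p = 0.718) and S100A8 (-1.36, adjusted p = 0.0760) were not called at T4 and changed by -7.10 ± 1.04 and -8.56 ± 0.79, while IL23A was already lower (-5.34). IL10 was higher after PMA-Ionomycin at T4 (4.65) and lower at T24, a change of -6.83 ± 0.88 (adjusted p = 2.89e-06). SERPINB6, a protease inhibitor, did the same, from 3.18 to -4.00. BCO2 was the reverse case, being well above background on all LPS arrays and no PMA-Ionomycin array at T4 (mean 1.72 against -0.70) and the other way round at T24. TLR10 went from -4.09 at T4 to 0.73 at T24 and CXCL10 from -3.80 to 0.27, with 2 and 1 of the PMA-Ionomycin arrays of T4 well above background.

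Against mock-stimulated cultures of T24, 10513 genes (36.5%) were called after PMA-Ionomycin and 748 (2.60%) after LPS. Both comparisons share the 4 mock arrays, so that their values are only set side by side. For S100A8 the difference from mock was -7.14 after PMA-Ionomycin and 2.79 after LPS, for IL1B -3.40 and 4.16, for IL23A -3.01 and 3.70 and for FPR1 -4.96 and 2.33. The stimulations thus lay on opposite sides of the mock mean in these 4 genes. For CDK1 the values were 4.71 and 0.35, for CD74 -4.69 and 0.24 and for CTSK -2.99 and 0.95. In the lists of mitosis, ribosome biogenesis and MHC class II, the calls between PMA-Ionomycin and mock were 39 higher and 0 lower of 42, 25 and 0 of 25, and 1 and 7 of 8, and those between LPS and mock were 1 and 0, 0 and 0, and 0 and 0. Inflammatory cytokines gave 9 higher and 8 lower of 27 after PMA-Ionomycin and 10 and 0 after LPS.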

How the data were processed

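Total RNA of 24 PBMC cultures, 6 groups of 4 rabbits, was labelled with Cy3 for one-colour Agilent arrays on 3 slides, and the authors extracted the deposited spot intensity values with Feature Extraction 10.7.3.1 (build oryCun2, per the file headers). The authors also deposited a log2 table, in which each array's mean was found to have been subtracted from the log2 median signal. Here the log2 median signal of the non-control spots was centred on the median of each array, outlier spots were dropped, and spots were averaged per probe and probes per gene, which gave 28904 genes from 42089 probes, 9552 of them with a symbol. Probes were named from RefSeq accessions (11474) or gene numbers (8868), from the immune gene list of the study (437), and from symbols in the files (288 in descriptions and 58 gene names), and 20964 had none.

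Limma 3.58.1 (R 4.3.3) was fitted to all 24 arrays, with 6 group means and the rabbit as a block, and p-values were adjusted by Benjamini-Hochberg over the 28789 genes tested. Arrays with the same number came from the same animal, and their deviations from the group means correlated at 0.137 to 0.367. The second contrast was the change of the difference from T4 to T24, and the third was each stimulation minus mock. The genes to name were the 10 largest calls each way among genes with a symbol that moved alike in 4 rabbits, the called cytokines and chemokines with those well above background, 4 members of each other list by size of difference, and 5 changes with time each way. Other genes were chosen after their values were seen. The arrays, lists and tests were chosen with earlier results of these data known. Whether a spot is well above background was taken from the files, and the number of arrays limits the precision. The alternatives were 4 other scalings, a filter on dim probes, outlier spots kept, fits without the rabbit block, with the slide, with array weights, with only the 8 arrays, with a trend, per probe, against 2-fold, and without each rabbit. Authors' comparisons were not used. Single values of some genes are not reported here.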

Additional observations from a re-analysis of the deposited data

Results flagged for a closer look

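In 9 of 176 genes named by the rule, 1 rabbit's difference of PMA-Ionomycin minus LPS at T24 lay far from the other 3. Chance gives such a value in about 1 of 20 genes. Rabbit 5 was the outlying animal in 5 of them. It was the only rabbit with arrays on different slides, so that animal and slide cannot be told apart here. The difference in rabbit 5 was 1.77 for IL34 (4.80 to 5.12 in the others), -6.62 for LTB (-4.44 to -4.05), 2.71 for CCNB1 (4.29 to 4.44), 1.90 for WDR75 (2.67 to 2.76) and -2.73 for ABCA1 (-3.85 to -3.72). Rabbit 2 stood apart with 1.38 for BATF (2.19 to 2.31), -2.48 for OASL (-1.02 to -0.78) and -3.02 for LIPA (-3.67 to -3.59). Rabbit 4 did so with -1.74 for LY96 (-0.97 to -0.85). The rule that named these 9 genes required the same direction in 4 of 4 rabbits, so that their common direction was fixed by the choice.

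The difference between the stimulations was not the same at T4 and T24, by limma's test of the change itself. Among the genes named for it, the change was 8.36 for BCO2 (adjusted p = 2.73e-12, with one stimulation at background at each time, so that its size is no bound), 5.45 for CDK1 (adjusted p = 6.13e-11), 5.37 for NCAPG (adjusted p = 1.77e-11), 5.07 for NDC80 (adjusted p = 4.09e-10) and 4.82 for TLR10 (adjusted p = 1.03e-09). It was -8.56 for S100A8 (adjusted p = 4.29e-08), -8.17 for ORM1 (adjusted p = 4.99e-11), -7.17 for SERPINB6 (adjusted p = 3.32e-09), -7.10 for IL1B (adjusted p = 1.44e-05) and -6.83 for IL10 (adjusted p = 2.89e-06).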

How the results depend on the processing

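Without the rabbit as a block 10410 genes were called at T24 instead of 11292 and 9360 changes with time instead of 10362, and with the slide as a further block 11942 genes were called. Leaving out 1 rabbit gave 9686 to 10721 genes at T24 and 8577 to 9399 changes. Requiring a difference beyond 2-fold (limma's treat) left 2614 genes at T24 (1922 higher, 692 lower) and 2351 changes (1219 upward, 1132 downward). The processed signal called 6145 genes lower at T24 instead of 4085. Fitting single probes, of which there are more than genes, gave 6376 lower probes and 7278 downward changes. Of the counts computed under the alternatives, 93 of 102 stayed within 1.5 times the reported count. TNF, not called, turned to -0.61 with quantile normalization and with normexp before it, to -0.21 with the processed signal and to -0.067 with the deposited table, and ranged from -0.073 to 0.32 without 1 rabbit. CCL2 turned to -0.32, -0.32 and, with array weights, -0.034, with -0.13 to 0.94 without 1 rabbit. CCL25 turned to -0.042 with the processed signal and -0.072 with the deposited table, and OSM ranged from -0.29 to 0.28 without 1 rabbit. Of 168 named genes that were called, 119 kept direction and call under every alternative. Calls lost when 1 rabbit was left out were those of IL10, IL18, TNFSF13B, CCL17, CXCL12, CCR7, TLR10, IFIT3, OASL and TUBB1. That of PRF1 was lost with the processed signal. Gained calls were those of IL22, IL15, CCL4, CXCL11 and CXCL16 when only the 8 arrays were fitted, of CCL5 with array weights, and of IL22, CXCL16 and CCL5 without rabbit 2, 1 and 5. The cause of these changes was not tested. Levels near background limit the folds of dim genes.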

Other observations

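Several of the large differences were in genes that the files give only a description, not a symbol, and that the lists therefore do not count. They were chosen after their values were seen and are named here by that description. The summed signals of monocyte and of neutrophil markers (3 of 7 neutrophil markers singly, and 1 higher) were lower after PMA-Ionomycin in the same cultures, and their part in these differences was not tested. Calgranulin C, an alarmin of the S100 family, had a mean of 1.79 ± 1.30 (SD, n = 4) after PMA-Ionomycin and 11.07 ± 0.47 after LPS, a difference of -9.28. Serum amyloid protein A, an acute-phase protein, differed by -9.03, the defensins NP-4 and NP-3a by -7.11 and -5.81, corticostatin-6 by -6.89 and the neutrophil chemokine ENA-78 by -5.94. A separate record for MRP-8, the protein that S100A8 encodes, differed by -9.82 and was well above background on 2 PMA-Ionomycin arrays. Records for class II chains likewise had lower levels, with -4.81 for a DR beta chain, -4.47 for a DO beta chain (well above background on 3 PMA-Ionomycin arrays) and -4.47 for a DQ alpha chain. Complement C1q subunit B was well above background on no PMA-Ionomycin array and at least 9.16-fold lower (adjusted p = 1.29e-09 by limma), a bound equal to its measured fold. Heme oxygenase 1 differed by -2.54. An immunoglobulin gamma heavy chain differed by -3.01.

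In the other direction, granzyme H, a protease of cytotoxic granules, differed by 4.95, although only by 2.70 in rabbit 5. Lymphotactin, a chemokine of activated T and NK cells, differed by 2.69 but was well above background on 1 LPS array, and the early activation antigen CD69 (3 LPS arrays) by 2.25. A T cell receptor delta record differed by 2.05, but its levels overlapped, with 1.06 to 3.85 after PMA-Ionomycin and -0.45 to 1.25 after LPS. Exonuclease 1 (3.29, well above background on 3 LPS arrays) and PCNA-associated factor (3.07), which act in DNA repair and replication, were higher as well.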
